A study of Mus musculus with 24 samples.

Results

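The smooth muscle contractile genes examined here are Acta2, Actg2, Tagln, Cnn1, Tpm1, Tpm2, Cald1, Myl9, Myh11 and Des, 10 genes chosen by name out of the 24825 genes listed in each library. They were followed gene by gene through 8 groups of cultured mouse cells. All 10 were listed and all 10 passed the filter on low values, Myh11 and Des through day 7 libraries alone. The unit is FPKM, reads divided by gene length in kilobases and by the library's total in units of 1000000, which sets genes of unlike length on a common scale. The gene lengths used were 2572 bases for Acta2 and 3279 for Tpm1, beside 1781 and 6485 exon bases in GENCODE. Among the members they were equal only for Tagln and Myh11. Ranks between genes and shares within a family depend on these lengths. FPKM is a share of each library's RNA, and in these bulk cultures fewer cells that express a gene and less of its RNA per cell cannot be told apart.

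Contractile genes encode the machinery with which smooth muscle cells and contractile fibroblasts shorten. Thin filaments are built of actin and carry tropomyosin, calponin, transgelin and caldesmon, while thick filaments are built of myosin heavy and light chains. Many of these genes are controlled by serum response factor (SRF), which binds a DNA element named the CArG box together with myocardin or the myocardin-related factors, and the latter are released to the nucleus when actin polymerises. Fibroblast-like adipocyte precursors express part of this set, and rearrangement of actin is a known feature of their conversion into round adipocytes.

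The RNA came from an immortalised line of the stromal vascular fraction of inguinal fat, a mixed preparation with adipocyte precursors, grown from Nfia flox/flox mice and carrying SV40 large T antigen in every group. The 4 cell types were ctrl (an empty retrovirus), Cre (a Cre recombinase retrovirus), Cre + NFIA (Cre and the full-length NFIA protein with a FLAG tag) and Cre + NFIA Δpro#3 (Cre and NFIA, likewise tagged, without a proline-rich segment near its C-terminus, called the mutant here for short). NFIA, of the nuclear factor I proteins, binds DNA and drives adipocyte genes, and the groups ask how cells change without Nfia and with either form put back. Each cell type was sampled at day 0, at confluence, and at day 7 of thermogenic adipocyte differentiation (isobutylmethylxanthine, indomethacin, dexamethasone, insulin, T3 and rosiglitazone, then insulin, T3 and rosiglitazone), with 3 replicates a group and 24 libraries in all. Whether the replicates were separate cultures, or the line a single clone, is not stated in the sources used here, so p-values measure the spread between these libraries, which may be technical.

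The libraries held 7732829 to 13088356 reads at day 0 and 9152991 to 14622189 at day 7. Nfia, the targeted gene, read 9.81, 9.15 and 9.70 FPKM in the ctrl replicates of day 7 and 10.7, 10.1 and 9.49 FPKM in the replicates labelled Cre, so the gene-level value does not check that label and directions given for Cre rest on it. The floxed part is a single exon of a long gene, and the study looked at its loss outside these libraries, by PCR of DNA across the loxP sites and by Nfia mRNA and protein, which are not analysed here. The transgenes brought Nfia to 89.99 ± 6.68 FPKM (SD, n = 3) in Cre + NFIA and 102 ± 8.44 FPKM for Cre + NFIA Δpro#3 at day 7, and the gene-level value does not separate the full-length from the mutant form.

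Promoter sequences of the members are shown because SRF acts through their CArG boxes. RefSeq promoters (build GRCm38.p6, 250 bases before to 50 after an annotated start) were matched for 7 of the 10 members in 8 windows. The 2 members with a CArG-type element in this window are printed 5′ to 3′, with the CArG box and boxes in which 1 of the 6 core bases is not A or T in capitals.
Acta2, chr19:34255324-34255623, minus strand: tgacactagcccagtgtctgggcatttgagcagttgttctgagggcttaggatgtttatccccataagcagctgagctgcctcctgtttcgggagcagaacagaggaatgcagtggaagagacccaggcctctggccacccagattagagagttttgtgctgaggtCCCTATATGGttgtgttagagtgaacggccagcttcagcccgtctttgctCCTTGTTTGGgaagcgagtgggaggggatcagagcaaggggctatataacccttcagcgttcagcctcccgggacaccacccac
Myl9, chr2:156775214-156775513, plus strand: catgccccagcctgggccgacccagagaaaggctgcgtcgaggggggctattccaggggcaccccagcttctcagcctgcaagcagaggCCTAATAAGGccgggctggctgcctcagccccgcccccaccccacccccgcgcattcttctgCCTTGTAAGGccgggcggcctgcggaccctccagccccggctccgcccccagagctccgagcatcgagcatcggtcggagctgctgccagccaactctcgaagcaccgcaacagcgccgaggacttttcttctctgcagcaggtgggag

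The Acta2 window holds 2 relaxed matches, CCCTATATGG at -84 and CCTTGTTTGG at -34 from the start, and the Myl9 window holds a full CArG box, CCTAATAAGG, at -161 and a relaxed match, CCTTGTAAGG, at -99. Of 32851 promoter windows in all, 1.63% held a full CArG box and 8.499% a relaxed one. The core of the nuclear factor I motif, TTGGC on either strand, lay in the windows of 4 of the 7 matched members (Cnn1, Myl9, Tpm1 and Cald1) and in 46.7% of all windows. The full motif, TTGGC followed after any 5 bases by GCCAA, reads the same on both strands and holds the shorter motif on each. It lay in none of the 7 and in 0.0365% of all windows. A match is a description of these letters and not of binding.

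Across the 24 libraries the 10 genes covered a wide range of levels. Acta2 lay between 69.2 and 279.6 FPKM and Cald1 between 66.3 and 178 FPKM, followed by Tpm1, Tagln and Tpm2. Myl9 lay between 15.9 and 80.8, Actg2 between 14.1 and 55.6 and Cnn1 between 4.57 and 24.8 FPKM. Myh11 and Des were scarce, at 0.113 to 3.03 and 0.0266 to 1.71 FPKM. The sum of the 10 was 311 to 349 FPKM in the Cre + NFIA libraries of day 7 and 823 to 956 FPKM for Cre + NFIA Δpro#3, the lowest and the highest groups. In between at day 7 lay ctrl at 458 to 577 and Cre at 648 to 757 FPKM, and none of these 4 groups overlapped with another. At day 0 the order was different, with ctrl at 667 to 699, Cre at 599 to 649.9, Cre + NFIA Δpro#3 at 479.9 to 519 and Cre + NFIA at 447 to 463 FPKM.

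**Figure D1:**
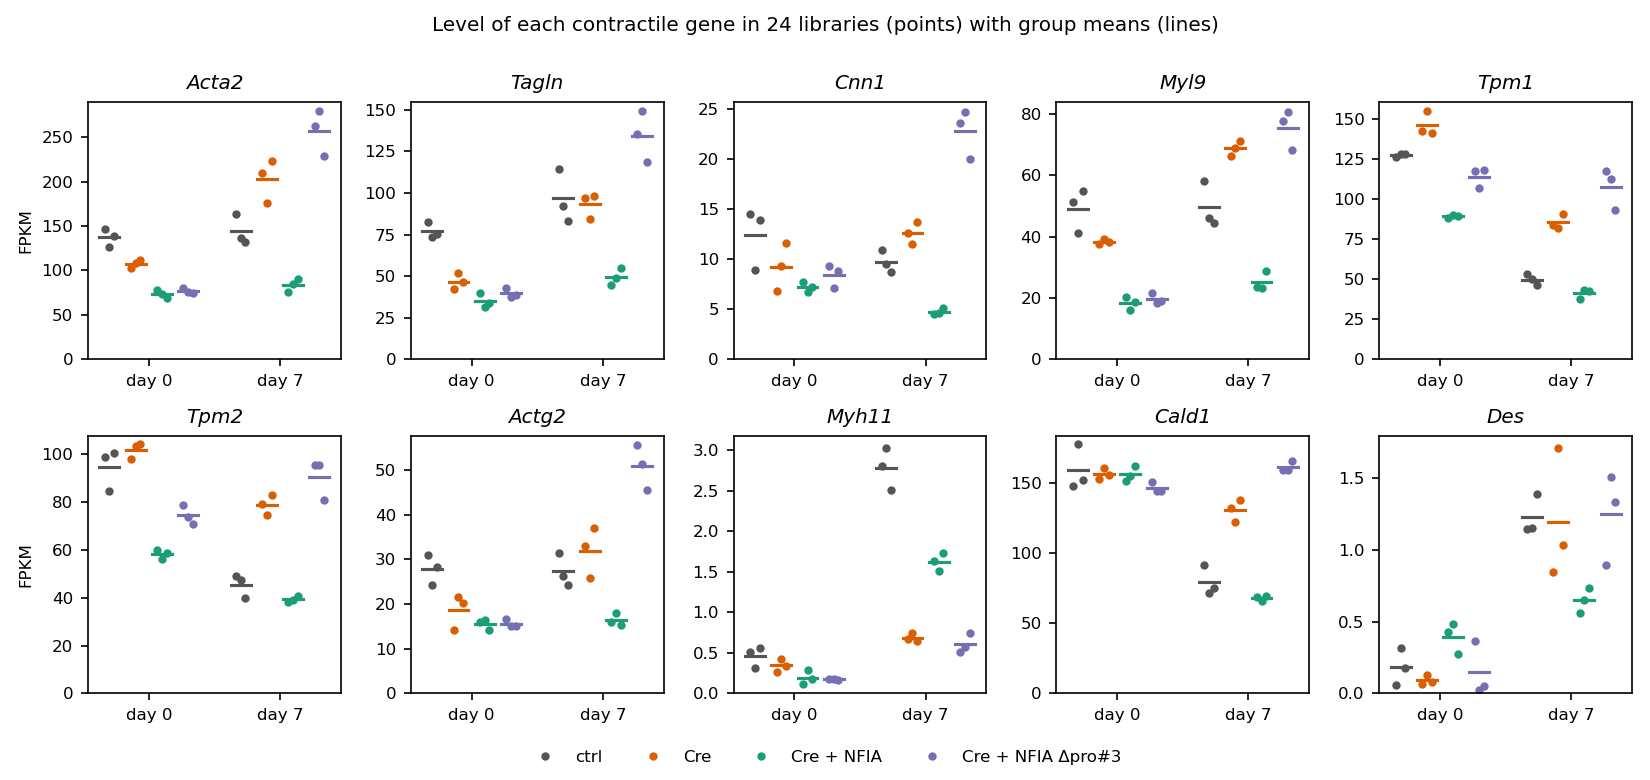
Each panel plots 1 gene, with the level in FPKM on the vertical axis (from 0) and the 4 cell types at day 0 and day 7 along the horizontal axis. Points are the 3 libraries of a group and lines their means. At day 7 most genes are lowest in Cre + NFIA and highest in Cre + NFIA Δpro#3, while Myh11 is highest in ctrl.

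The smooth muscle actins Acta2 and Actg2 form the thin filament. Acta2 (mm9 chromosome 19, 34315580 to 34329826, minus strand) was at 146, 127 and 138 FPKM for ctrl at day 0 and at 103, 108 and 111 FPKM in libraries labelled Cre. It was lower still with either transgene, at 77.95, 73.4 and 69.2 FPKM for Cre + NFIA and 80.5, 76.1 and 75.1 FPKM for Cre + NFIA Δpro#3. The ctrl libraries were thus the highest at day 0, and the groups with a transgene overlapped. By day 7 Acta2 stood at 164, 136 and 132 FPKM for ctrl and 209.7, 175 and 223 FPKM for Cre. Cre + NFIA was the lowest at 75.5, 84.97 and 90.4 FPKM, and Cre + NFIA Δpro#3 was the highest at 262, 279.6 and 228 FPKM. None of the 4 groups of day 7 overlapped with another.

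On the log2(FPKM + 1) scale, tested with limma and Benjamini-Hochberg adjustment over all genes, Acta2 changed at day 7 by 0.49 (SE 0.11, adjusted p = 0.00266) in Cre against ctrl. Full-length NFIA against Cre gave -1.26 (SE 0.11, adjusted p = 1.45e-06). For the mutant against Cre the difference was 0.34 (SE 0.11, adjusted p = 0.0569), which did not pass, with a 95% interval of 0.10 to 0.59, although it passed in 6 of the alternatives, where adjusted p ranged from 0.0130 to 0.215 over all of them. The mutant against full-length NFIA gave 1.61 (SE 0.11, adjusted p = 1.17e-07), a ratio of means of 3.07. At day 0 the same pair differed by 0.07 (95% interval -0.06 to 0.20).

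Actg2 (chromosome 6, 83462899 to 83486259, minus strand), the second smooth muscle actin, is best known from gut muscle. At day 0 it was at 30.9, 24.3 and 28.2 FPKM for ctrl and 14.3, 21.5 and 20.2 FPKM for Cre. Both transgene groups were close to each other, 15.98, 16.4 and 14.1 FPKM for Cre + NFIA and 16.7, 15.04 and 15.1 FPKM for Cre + NFIA Δpro#3. Only ctrl was clear of all other groups at that day. At day 7 the ctrl libraries were at 31.3, 26.4 and 24.4 FPKM and overlapped with Cre at 32.97, 25.9 and 37.04 FPKM. Cre + NFIA lay below both at 16.02, 17.9 and 15.3 FPKM, and Cre + NFIA Δpro#3 above both at 55.6, 51.3 and 45.6 FPKM. It fell with full-length NFIA against Cre by 0.91 on the log2 scale (SE 0.13, adjusted p = 5.87e-05) and the mutant was higher than Cre by 0.66 (SE 0.13, adjusted p = 0.00435). The coding sequences of the actin genes are nearly alike and reads that fit more than 1 place were not counted, so levels of Acta2 and Actg2 rest on the stretches that differ.

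Tagln (transgelin, chromosome 9, 45737711 to 45744141, minus strand) and Cnn1 (calponin 1, chromosome 9, 21903725 to 21914074, plus strand) are actin-binding proteins used as markers of smooth muscle differentiation. Tagln at day 0 was at 82.4, 73.6 and 75.4 FPKM for ctrl and at 42.1, 51.7 and 46.3 FPKM for Cre. With the transgenes it was at 39.99, 31.5 and 33.6 FPKM for Cre + NFIA and 42.8, 37.7 and 38.7 FPKM for the mutant. Ctrl was the one group clear of the rest. At day 7 ctrl held 115, 92.4 and 83.2 FPKM and overlapped with Cre, at 97.05, 84.1 and 98.2 FPKM. Cre + NFIA was at 44.6, 48.7 and 54.7 FPKM, while Cre + NFIA Δpro#3 reached 136, 149 and 119 FPKM.

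Tagln fell in Cre against ctrl at day 0 by 0.72 on the log2 scale (SE 0.10, adjusted p = 0.00364), the change with the largest size among the members in that comparison. At day 7 the difference between Cre and ctrl was -0.05 (95% interval -0.31 to 0.22), which did not pass. It was -0.90 (SE 0.12, adjusted p = 4.10e-05) in Cre + NFIA against Cre and 0.52 (SE 0.12, adjusted p = 0.0119) in the mutant against Cre, which did not pass without Cre replicate 2. A short stretch of 65 bases of Tagln overlaps Pcsk7 on the opposite strand, and counting used the strand.

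Cnn1 was the scarcer of the pair, at 14.6, 8.97 and 13.9 FPKM for ctrl, 6.79, 9.31 and 11.6 FPKM for Cre, 7.74, 6.72 and 7.18 FPKM for Cre + NFIA and 9.32, 7.13 and 8.87 FPKM for the mutant at day 0. Ctrl overlapped with Cre and with the mutant, and Cre with both transgene groups. At day 7 the levels were 10.9, 9.54 and 8.77 FPKM for ctrl and 12.6, 11.5 and 13.7 FPKM for Cre. Cre + NFIA held 4.57, 4.60 and 5.09 FPKM and the mutant 23.6, 24.8 and 20.1 FPKM, with no overlap among the 4 groups. Between the mutant and full-length NFIA at day 7 Cnn1 differed by 2.04 (SE 0.10, adjusted p = 7.40e-09), 4.80 times in means, the largest difference of any member in any of the 20 comparisons. Against Cre it rose with the mutant by 0.80 (SE 0.10, adjusted p = 4.34e-04) and fell with full-length NFIA by 1.24 on the log2 scale (SE 0.10, adjusted p = 4.52e-07). The rise of 0.35 (SE 0.10, adjusted p = 0.00809) in Cre against ctrl did not pass with median-of-ratios size factors, with quantile normalization or with all 24 libraries in the model.

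Tpm1 (chromosome 9, 66870397 to 66897213, minus strand) and Tpm2 (chromosome 4, 43527583 to 43536637, minus strand) encode tropomyosins, which wind along actin filaments, and Cald1 (chromosome 6, 34548500 to 34725473, plus strand) encodes caldesmon, which restrains myosin on them. Each gene gives both smooth muscle and fibroblast isoforms, and gene-level FPKM does not separate them. At day 0 Tpm1 was at 126, 128 and 128 FPKM for ctrl and 143, 155 and 141 FPKM for Cre. Cre + NFIA was lower at 88.2, 90.2 and 89.6 FPKM, and the mutant in between at 118, 107 and 118 FPKM. All 4 groups were separate. At day 7 Tpm1 was at 53.2, 49.9 and 46.4 FPKM for ctrl and 83.8, 82.1 and 90.8 FPKM for Cre. Cre + NFIA held 37.8, 43.4 and 42.4 FPKM, below every ctrl library, and the mutant held 118, 113 and 92.98 FPKM, the highest of that day.

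Tpm1 and Tpm2 were the members that differed between the forms of NFIA at day 0. For the mutant against full-length Tpm1 gave 0.35 (SE 0.05, adjusted p = 6.97e-04) and Tpm2 0.35 (SE 0.07, adjusted p = 0.00584). At day 7 Tpm1 rose in Cre against ctrl by 0.77 (SE 0.09, adjusted p = 1.87e-05) and fell in Cre + NFIA against Cre by 1.04 on the log2 scale (SE 0.09, adjusted p = 1.10e-06). The mutant against Cre gave 0.32 (SE 0.09, adjusted p = 0.0270), and this call was lost when any of Cre replicate 1, Cre replicate 2, mutant replicate 1 or mutant replicate 2 was left out.

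Tpm2 followed a like course. It was at 98.8, 84.8 and 101 FPKM for ctrl, 98.1, 103 and 105 FPKM for Cre, 60.1, 56.3 and 58.8 FPKM for Cre + NFIA and 78.95, 73.9 and 70.96 FPKM for the mutant at day 0. Ctrl and Cre overlapped there. At day 7 it was at 49.1, 47.5 and 39.9 FPKM for ctrl and 79.2, 74.9 and 83.00 FPKM for Cre. The other 2 groups held 38.2, 39.03 and 40.8 FPKM for Cre + NFIA and 95.5, 95.4 and 80.9 FPKM for the mutant. Cre + NFIA overlapped with ctrl, and the mutant with Cre. In Cre against ctrl Tpm2 rose by 0.79 (SE 0.08, adjusted p = 1.04e-05), and in Cre + NFIA against Cre it fell by 0.99 on the log2 scale (SE 0.08, adjusted p = 1.04e-06). The mutant differed from Cre by 0.19 (95% interval 0.01 to 0.38), which did not pass.

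Cald1 was nearly level at day 0, with 148, 178 and 152 FPKM for ctrl, 153, 161 and 156 FPKM for Cre, 152, 155 and 163 FPKM for Cre + NFIA and 151, 144 and 145 FPKM for the mutant. It passed in none of the 6 comparisons of that day. At day 7 the groups were apart, at 91.6, 71.98 and 75.5 FPKM for ctrl and 132, 123 and 138 FPKM for Cre. Cre + NFIA was at 69.04, 66.3 and 69.7 FPKM and the mutant at 159.6, 159.8 and 166 FPKM. None of these 4 groups overlapped, and only in the mutant were the libraries of day 7 not below those of day 0. Full-length NFIA against Cre gave -0.93 (SE 0.08, adjusted p = 9.93e-07). The mutant against Cre gave 0.30 (SE 0.08, adjusted p = 0.0204), a call that was lost without Cre replicate 1 or 2 and without mutant replicate 1 or 3. The Cald1 locus overlaps 4 annotated genes on the opposite strand, and counting used the strand.

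Thick filaments contain Myl9 (chromosome 2, 156601156 to 156607394, plus strand), the regulatory light chain whose phosphorylation starts contraction, and Myh11 (chromosome 16, 14194620 to 14291501, minus strand), the smooth muscle myosin heavy chain and the most restricted marker of the lineage. Myl9 levels at day 0 were 51.2, 41.1 and 54.7 FPKM for ctrl and 37.7, 39.2 and 38.3 FPKM for Cre. They were lower with either transgene, at 20.4, 15.9 and 18.6 FPKM for Cre + NFIA and 21.6, 18.5 and 19.02 FPKM for the mutant. At day 7 Myl9 stood at 58.2, 46.1 and 44.5 FPKM for ctrl, 66.2, 68.9 and 71.3 FPKM for Cre, 23.5, 23.2 and 28.6 FPKM for Cre + NFIA and 77.5, 80.8 and 68.1 FPKM for the mutant, where the mutant overlapped with Cre. Against Cre the mutant gave -0.93 (SE 0.11, adjusted p = 3.10e-04) at day 0, and the difference did not pass at day 7, 0.13 (95% interval -0.10 to 0.36). Full-length NFIA against Cre gave -1.03 (SE 0.11, adjusted p = 5.61e-05) at day 0 and -1.42 (SE 0.11, adjusted p = 3.69e-07) at day 7.

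Myh11 was at a low level and took another course. At day 0 it had 38, 26 and 49 reads in ctrl, 18, 22 and 18 reads in Cre, 8, 18 and 13 reads in Cre + NFIA and 15, 14 and 14 reads in the mutant, which is 0.113 to 0.565 FPKM. At day 7 it was highest in ctrl at 2.80, 3.03 and 2.51 FPKM and next in Cre + NFIA at 1.63, 1.51 and 1.73 FPKM. Libraries labelled Cre held 0.666, 0.741 and 0.642 FPKM and the mutant 0.517, 0.573 and 0.749 FPKM, and these 2 groups overlapped. The change in Cre against ctrl was -1.17 (SE 0.09, adjusted p = 1.59e-06), in means 0.246 times ctrl. Full-length NFIA against Cre gave 0.64 (SE 0.09, adjusted p = 8.55e-05), in means 2.38 times, and the mutant against Cre -0.06 (95% interval -0.27 to 0.14), which did not pass. Myh11 was thus the only member higher in Cre + NFIA than in Cre at day 7 and the only one lower in the mutant than with full-length NFIA. It reached 1 FPKM, the level of the filter, only in ctrl and Cre + NFIA libraries of day 7. Myh11 was tested only through the groups where it was high, so these calls are no independent count. The summed adipocyte genes given further on were likewise highest in ctrl and next in Cre + NFIA at day 7, and their part in the Myh11 values was not tested. Fabp4 made up 17544 of the mean sum of 25572 FPKM in ctrl. None of the 12 adipocyte genes passed in Cre + NFIA against ctrl at day 7, so this order is one of the sum.

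Des encodes desmin, the intermediate filament of muscle cells. It had 1 to 14 reads in any library of day 0 and 23 to 60 reads at day 7. FPKM at day 7 was 1.14, 1.15 and 1.39 in ctrl, 0.843, 1.71 and 1.03 in Cre, 0.559, 0.654 and 0.736 in Cre + NFIA and 0.895, 1.51 and 1.34 in the mutant. Cre + NFIA was below the other 3 groups in every replicate. Des reached 1 FPKM only in day 7 libraries of those 3 groups, so it passed the filter only through groups where it was higher. Its call against Cre at day 7, -0.39 (SE 0.15, adjusted p = 0.0374), was lost in 8 of the alternatives and that of day 0, 0.35 (SE 0.12, adjusted p = 0.0482), in 12. Des had the fewest reads of the members.

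Counted over the members, at day 0 in Cre against ctrl 2 of the 10 passed the test (adjusted p under 0.05), both lower, Acta2 and Tagln. Of all 12640 genes tested 1.7% were lower. The median of the members' log2 changes was -0.23 and that of all genes 0.01. The count was 0 with only these 2 groups in the model and 4 by limma voom on the reads recovered from FPKM.

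For Cre + NFIA against Cre at day 0, 5 members fell (Acta2, Tagln, Myl9, Tpm1 and Tpm2), beside 12.9% of all genes, and Des rose, beside 14.7%, a call that neither of the other scalings kept. The median was -0.35 against 0.02 over all genes. With the mutant against Cre 4 fell (Acta2, Myl9, Tpm1 and Tpm2), beside 9.02% of all genes, and the median was -0.23 against 0.01. The comparisons within a day share their 12 libraries and are not independent. Set against ctrl, 8 members were lower in Cre + NFIA (14.3% of all genes) and 7 in the mutant (13.2%), with none higher in either. Of these the calls of Cnn1 and Myh11 in Cre + NFIA and of Myh11 and Tpm1 in the mutant were each lost without ctrl replicate 1 and without ctrl replicate 3, and in part without others. The mutant and full-length NFIA differed in 2 members at day 0, Tpm1 and Tpm2, both higher with the mutant, beside 4.5% of all genes.

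At day 7 in Cre against ctrl 6 members rose (Acta2, Cnn1, Myl9, Tpm1, Tpm2 and Cald1), beside 36.1% of all genes, and Myh11 fell, beside 22.7%. The median was 0.41 against 0.09 over all genes. In Cre + NFIA against Cre 9 members fell, beside 35.9% of all genes, and Myh11 was the 1 that rose, beside 27%. Here the median was -0.96 against -0.06. Against ctrl, Cre + NFIA was lower in 6 (Acta2, Tagln, Cnn1, Myl9, Actg2 and Myh11), beside 9.15% of all genes, and higher in none, with a median of -0.61 against 0.02. Myh11 and Des passed the filter only through day 7 groups where they were high, so their calls at day 7, here and below, are no independent count.

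The mutant against Cre at day 7 had 5 members higher (Tagln, Cnn1, Tpm1, Actg2 and Cald1), beside 7.7% of all genes, and none lower, with a median of 0.31 against 0.02. Without Cre replicate 1 this count was 3, without Cre replicate 2 it was 2, and without mutant replicate 1 it was 3. Set against full-length NFIA, the mutant was higher in 9 members, beside 40.4% of all genes, and lower in Myh11, beside 28.9%. The median was 1.39 against 0.10. Acta2 and Cnn1 also reached 3-fold, as 6.92% of all genes did. Against ctrl the mutant was higher in 8 members (41.4% of all genes) and lower in Myh11 (25.4%), with a median of 0.85 against 0.13.

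FPKM is scaled to the library total, of which highly expressed adipocyte genes take part at day 7. Median-of-ratios size factors moved the median of all genes by -0.11 in Cre against ctrl, by -0.10 in the mutant against full-length NFIA and by -0.13 in the mutant against ctrl at day 7. Relative to that, the members' medians were 0.30, 1.28 and 0.70 above that of all genes. Among all genes called in Cre against ctrl the deposited values gave 4563 higher and 2867 lower, and size factors 3398 higher and 3948 lower. The members' counts under size factors were 5 higher and 1 lower in Cre against ctrl, 1 higher and 8 lower in Cre + NFIA against Cre (3418 higher and 4540 lower of all genes as deposited, 4264 and 3677 with size factors), and 9 higher and 1 lower in the mutant against full-length NFIA. For the mutant against ctrl the split of all genes was 5239 higher and 3214 lower as deposited, and 3966 and 4187 with size factors. In Cre against ctrl at day 0 it was 206 and 215 as deposited, 138 and 218 with size factors, and 122 and 219 with quantile normalization. No member that passed changed its direction with size factors or quantile normalization.

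**Figure D2:**
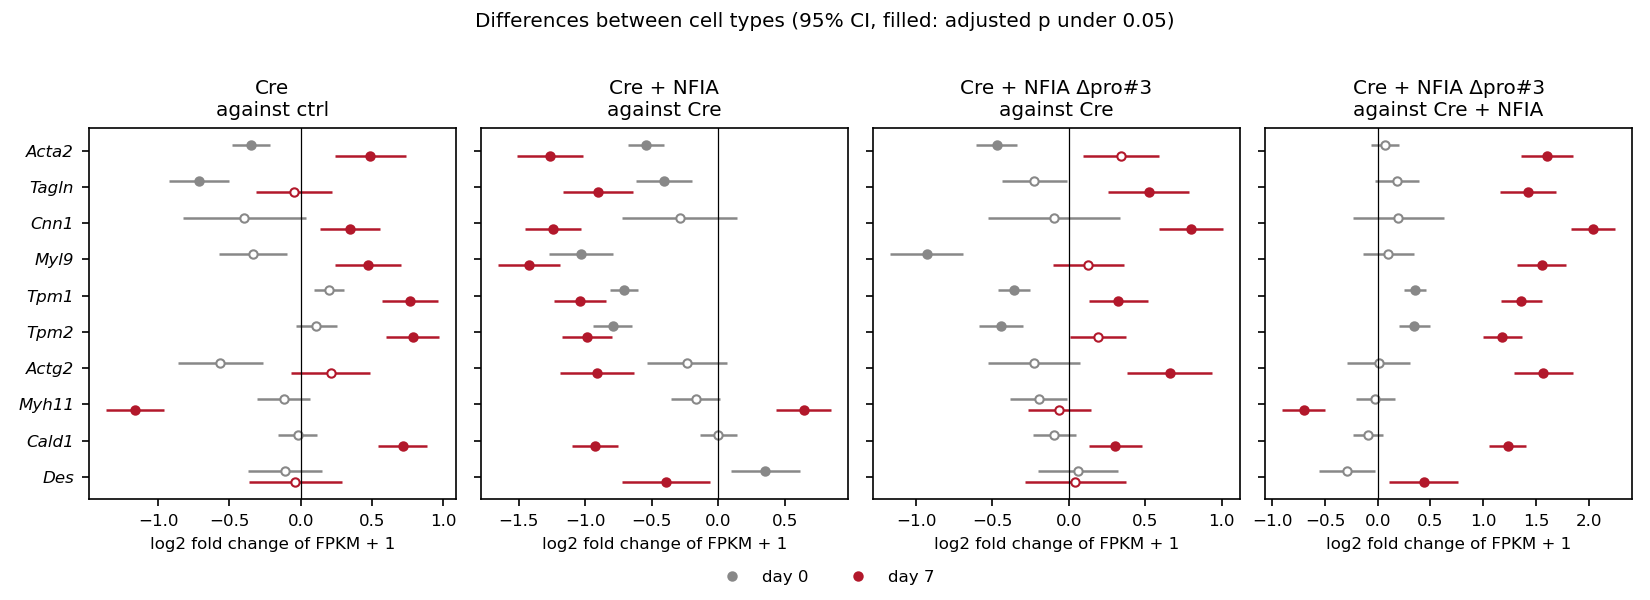
Each panel compares 2 cell types, with the log2 fold change of FPKM + 1 on the horizontal axis and the 10 genes on the vertical axis, for day 0 (grey) and day 7 (red). Lines are 95% intervals and filled points passed an adjusted p of 0.05. Cre + NFIA lies to the left of Cre in 9 genes at day 7, and the mutant lies to the right of full-length NFIA in the same 9.

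From day 0 to day 7 Tagln and Myh11 rose in all 4 cell types, and Tpm1, Tpm2 and Cald1 fell in ctrl, Cre and Cre + NFIA. Myh11 and Des passed the filter on low values through day 7 libraries alone, so their rises are no independent count, and 7 such rises are among those below. With no filter these 7 also passed, at adjusted p of 7.40e-12 to 0.00175. In ctrl 3 rose (Tagln, Myh11 and Des), beside 32.9% of all genes, and 3 fell (Tpm1, Tpm2 and Cald1), beside 38.1%. Tpm1 fell by 1.34 on the log2 scale, Cald1 by 1.00 and Tpm2 by 1.04, while Acta2 changed by 0.06 (95% interval -0.13 to 0.26). In Cre + NFIA 3 rose (Tagln, Myl9 and Myh11), beside 31.8%, and 4 fell (Cnn1, Tpm1, Tpm2 and Cald1), beside 38.3%. In both cell types these shares of the 10 members were near those of all genes. Tagln in ctrl lost its call when ctrl replicate 2 or 3 of day 0 or replicate 1 of day 7 was left out.

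In libraries labelled Cre 7 rose, beside 30% of all genes, and 3 fell (Tpm1, Tpm2 and Cald1), beside 21.6%. Acta2 rose by 0.90 (SE 0.09, adjusted p = 8.38e-08) and Tagln by 0.98 (SE 0.11, adjusted p = 3.86e-07) there. With quantile normalization the split of all genes was 2954 higher and 3689 lower in Cre, instead of 3795 and 2736, and 5 members rose. In the mutant 8 rose, beside 24.5%, and none fell. Tpm1 and Cald1 did not pass, with -0.09 (95% interval -0.24 to 0.07) and 0.14 (-0.01 to 0.29). Myl9 rose most, by 1.89 (SE 0.11, adjusted p = 3.02e-11), followed by Tagln with 1.73 (SE 0.11, adjusted p = 1.51e-10), Acta2 with 1.72 (SE 0.09, adjusted p = 9.33e-12) and Actg2 with 1.64 (SE 0.14, adjusted p = 5.21e-09). These 4 also reached 3-fold, as 1.46% of all genes did. The split of all genes in the mutant, 3101 higher and 2146 lower as deposited, was 2459 and 2605 with quantile normalization. Medians over the members were 0.00 in ctrl, 0.59 in Cre, 0.13 in Cre + NFIA and 1.15 in the mutant, beside -0.05, 0.05, -0.05 and 0.05 over all genes. For Acta2, Tagln, Myl9 and Actg2 the mutant had the lowest group mean but 1 of the 8 at day 0, next to Cre + NFIA, and the highest at day 7.

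**Figure D3:**
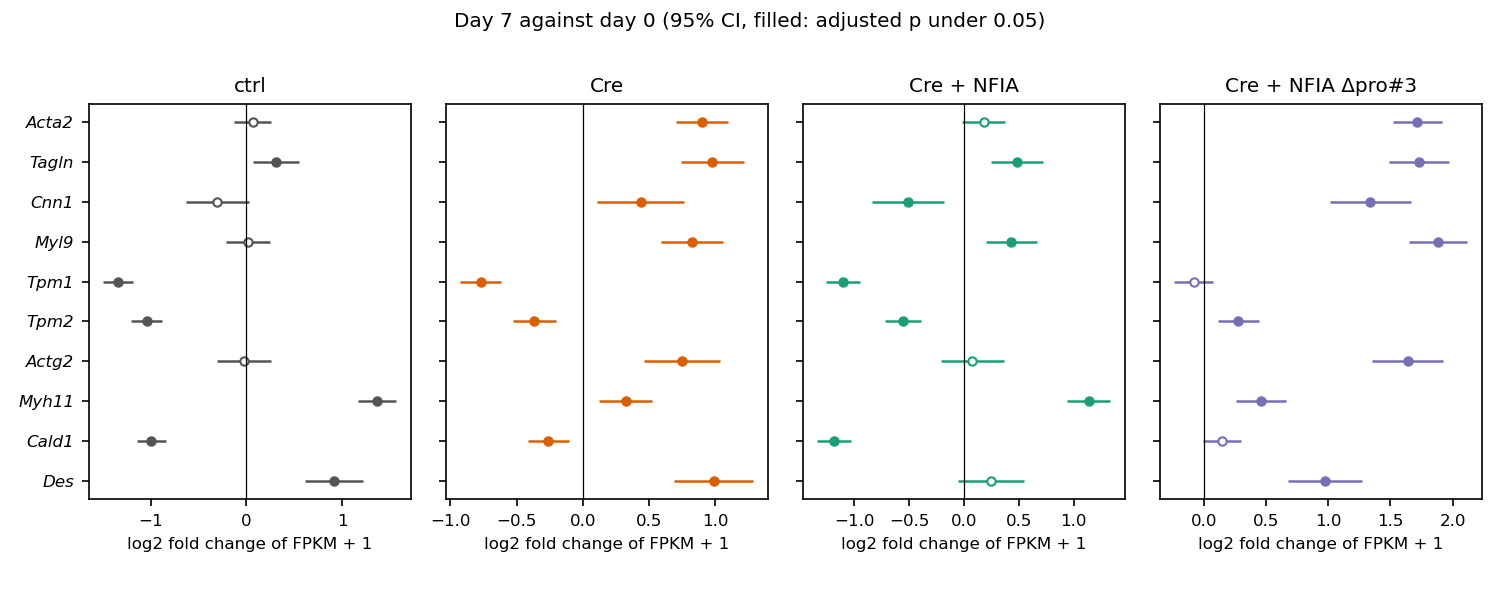
The 4 panels give day 7 against day 0 in each cell type, as log2 fold change of FPKM + 1 with 95% intervals for the 10 genes, filled where adjusted p was under 0.05. Tpm1, Tpm2 and Cald1 are filled and left of 0 in ctrl, Cre and Cre + NFIA, while in the mutant Tpm1 and Cald1 are open and Tpm2 lies right of 0.

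Whether the signed difference between 2 cell types changed from day 0 to day 7 was tested as an interaction. A higher value can also mean a smaller gap. This was so for Tagln in Cre against ctrl, where Cre lay below ctrl at day 0 and overlapped with it at day 7. Between the mutant and full-length NFIA 9 members had a higher difference at day 7 than at day 0, beside 35% of all genes, and Myh11 a lower one, beside 24.3%. For Acta2 it was 1.54 (SE 0.13, adjusted p = 4.33e-09) and for Cnn1 1.85 (SE 0.22, adjusted p = 4.21e-07), the 1 member over 3-fold, as were 7.02% of all genes. Between the mutant and Cre 8 were higher, beside 7.79%, with none lower. Cre against ctrl gave 8 higher (29.7%) and Myh11 lower (19.5%). For full-length NFIA against Cre 8 were lower (30.1%) and Myh11 higher (18.8%), and with size factors 5 were lower, since Tagln, Myl9 and Tpm1 no longer passed. Size factors moved the median of all genes by -0.11 in the interaction of Cre against ctrl (3753 higher and 2471 lower as deposited, 2837 and 3289 with size factors). The shifts were 0.11 for full-length NFIA against Cre (2378 and 3805, then 3158 and 2914) and -0.12 for the mutant against full-length NFIA (4428 and 3077, then 3560 and 3740).

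Over the 24 libraries Acta2, Tagln, Cnn1, Myl9 and Actg2 varied together, with Pearson's r between 0.78 and 0.97 in their 10 pairs on the log2 scale. Tpm1, Tpm2 and Cald1 formed a second set with r of 0.85 to 0.94. Myh11 had r of -0.87 with Cald1, -0.82 with Tpm1 and 0.21 with Acta2. These values describe 8 groups of 3 libraries that share day, cell line and depth, and the 2 sets were named after the values were seen.

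The contractile isoforms can be set beside their cytoplasmic counterparts, which every fibroblast uses. Acta2 made up 8.04% ± 0.104 of the summed FPKM of Acta2, Actg2, Actb and Actg1 in ctrl at day 0 (SD, n = 3), 5.93% ± 0.183 in Cre, 4.48% ± 0.0588 in Cre + NFIA and 4.62% ± 0.123 in the mutant. At day 7 the shares were 11.4% ± 0.855, 11.8% ± 0.839, 7.79% ± 0.625 and 12.4% ± 0.879 in the same order. The share was higher at day 7 than at day 0 in every library of each cell type, and at day 7 Cre + NFIA alone lay below the other 3, which overlapped. Among the day 7 groups Actb was itself lower where Acta2 was lower, at 849 ± 35.1 FPKM for ctrl, 1136 ± 47.3 in Cre, 727 ± 4.61 in Cre + NFIA and 1327 ± 21.3 FPKM for the mutant (mean ± SD, n = 3). This did not hold at day 0, where Actb was at 1200 ± 63.4 in ctrl, 1336 ± 61.1 in Cre, 1214 ± 60.9 in Cre + NFIA and 1236 ± 15.3 in the mutant. In ctrl mean Acta2 was 137 FPKM at day 0 and 144 at day 7, with overlap, so its higher share at day 7 went with lower Actb.

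Tagln took 38.2% ± 0.549 of Tagln and Tagln2 together in ctrl at day 0, 26.8% ± 2.29 in Cre, 15.3% ± 1.75 in Cre + NFIA and 17.7% ± 1.34 in the mutant. By day 7 these were 55.4% ± 2.70, 43.4% ± 1.30, 39.3% ± 2.003 and 47.3% ± 2.76. The highest share at day 7 was thus in ctrl, not in the mutant, where Tagln2 was also high at 149.8 ± 12.1 FPKM. Cnn1 among 3 calponins was at 5.89% ± 0.247 in ctrl, 3.94% ± 0.0198 in Cre, 4.80% ± 0.183 in Cre + NFIA and 6.32% ± 0.495 in the mutant at day 7. Its share was lowest in Cre, where Cnn2, a calponin of non-muscle cells, was at 177 ± 16.2 FPKM beside 81.4 ± 9.10 FPKM for ctrl. In the mutant, where the share was highest, Cnn2 was at 186 ± 9.17 FPKM.

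Myl9 was 14.9% ± 1.69 of Myl9, Myl12a and Myl12b in ctrl, 16.1% ± 0.469 in Cre, 8.21% ± 0.765 in Cre + NFIA and 16.02% ± 0.555 in the mutant at day 7, so that Cre + NFIA alone stood apart. Myh11 was a small part of Myh11, Myh9 and Myh10 everywhere, at most 1.43% ± 0.102, in ctrl at day 7. Tpm1 made up 14.02% ± 0.570 of the 4 tropomyosins in Cre + NFIA and 18.4% ± 1.40 in the mutant at day 7, and Tpm2 13.4% ± 0.491 and 15.4% ± 0.805. The exact two-sided permutation test of 3 against 3 libraries cannot go below 0.1. None of the 96 comparisons of shares (8 genes, 12 pairs of groups) could therefore pass a threshold of 0.05.

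**Figure D4:**
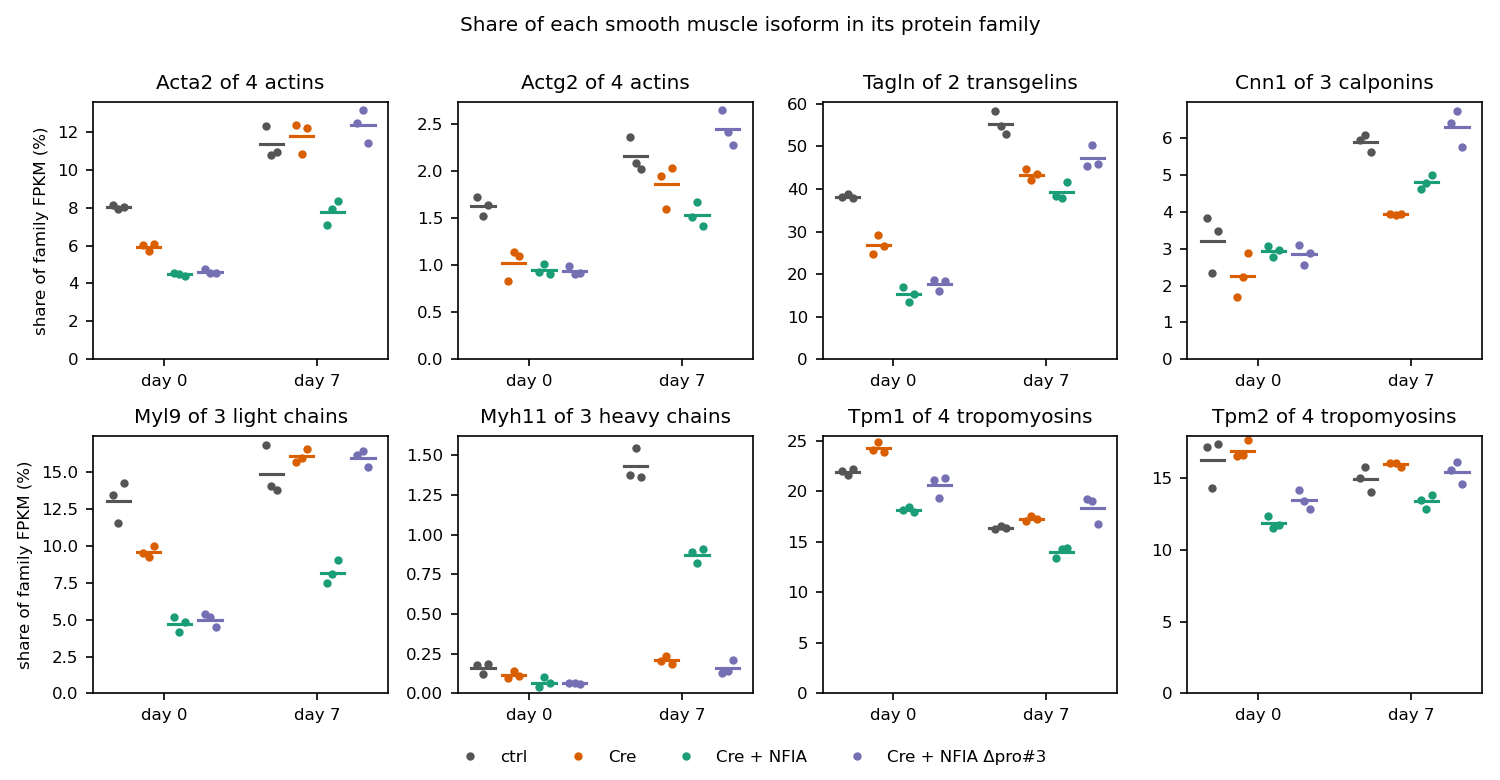
Each panel gives 1 isoform's share of its protein family's summed FPKM, in percent on a vertical axis from 0, for the 4 cell types at day 0 and day 7. Points are libraries and lines group means. Shares of Acta2 and Tagln are higher at day 7 than at day 0 in all 4 cell types, and Tpm1 shares are lower.

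The other lists are counted in Cre + NFIA and in the mutant against Cre. Of all genes, 27% were higher and 35.9% lower in Cre + NFIA at day 7, and 7.7% higher and 10% lower in the mutant. At day 0, 14.7% were higher and 12.9% lower in Cre + NFIA, and 9.26% higher and 9.02% lower in the mutant. All-gene medians lay between -0.06 and 0.02 in these 4 comparisons.

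Of 25 other smooth muscle genes 18 were tested. In Cre + NFIA against Cre at day 7 12 of the 18 fell and 4 rose, beside 35.9% and 27% of all genes, with a median of -0.51. The largest falls were of Filip1l, -1.97 (SE 0.15, adjusted p = 3.39e-07), and of Pdlim7, a PDZ and LIM protein of actin bundles, -1.30 (SE 0.10, adjusted p = 4.85e-07). Among those that rose was Fhl1, a LIM domain protein of muscle, with 0.76 (SE 0.08, adjusted p = 6.33e-06). With the mutant against Cre 3 rose, led by Fhl1 (0.60) and the actin crosslinker Actn1 (0.43). Fhl1 rose with each form of NFIA at day 7, 17.01 FPKM for Cre, 29.6 in Cre + NFIA and 26.3 FPKM for the mutant. At day 0 12 of the 18 fell with full-length NFIA, led by Hspb6 (-0.92) and Filip1l (-0.77), and 1 rose, Fhl1 (1.14). With the mutant 11 fell at that day, among them Tgfb1i1 (-0.62), and none rose.

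SRF and its co-regulators come next in the pathway. Myocd, encoding myocardin, the co-activator that defines smooth muscle cells, had 0 to 4 reads in any library, near or under the 3 reads that a count of 0 allows. Srf was at 15.8, 16.04 and 15.8 FPKM for ctrl, 20.9, 19.6 and 20.1 FPKM for Cre, 15.5, 14.7 and 14.9 FPKM for Cre + NFIA and 20.7, 21.5 and 20.2 FPKM for the mutant at day 7. The ctrl and Cre + NFIA libraries were thus below the other 2 groups. For Srf the change in Cre + NFIA against Cre was -0.41 (SE 0.05, adjusted p = 1.23e-05), and the mutant against Cre gave 0.04 (adjusted p = 0.621).

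The myocardin-related factors are listed as Mkl1 and Mkl2. Mkl1 was at 15.98, 15.2 and 13.6 FPKM for ctrl, 28.3, 31.7 and 32.8 FPKM for Cre, 12.98, 12.6 and 13.6 FPKM for Cre + NFIA and 36.6, 36.96 and 35.7 FPKM for the mutant at day 7. The ctrl and Cre + NFIA libraries overlapped, and both lay below Cre and Cre below the mutant. It differed by 1.41 (SE 0.07, adjusted p = 8.48e-09) between the mutant and full-length NFIA, and by 0.23 (SE 0.07, adjusted p = 0.0349) between the mutant and Cre. At day 0, where Acta2 and Myl9 were lower with both transgenes, Mkl1 was at 32.5 ± 3.72, 32.6 ± 3.08, 28.6 ± 2.10 and 29.6 ± 1.61 FPKM in the order ctrl, Cre, Cre + NFIA and mutant (SD, n = 3), and neither transgene group passed against Cre. Mkl2 in Cre + NFIA against Cre gave -0.43 (SE 0.06, adjusted p = 3.42e-04) at day 0 and -0.54 (SE 0.10, adjusted p = 4.31e-04) at day 7.

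Of 14 tested genes of the SRF list 10 fell and 1 rose in Cre + NFIA against Cre at day 7, beside 35.9% and 27% of all genes. Elk3, a partner of SRF on DNA, fell by 1.64 and Klf4, a repressor of smooth muscle genes, by 1.45 on the log2 scale, while Foxo1 rose by 0.69. With the mutant against Cre 1 rose, Mkl1, and 1 fell, Gata6 (-0.41). At day 0 3 rose and 3 fell with full-length NFIA, beside 14.7% and 12.9% of all genes, among them Foxo1 (0.77), Klf4 (0.56), Mkl2 and Foxo4 (-0.35). With the mutant 3 fell, led by Foxo4 (-0.31) and Tead1 (-0.24).

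Of 14 tested genes of contraction signalling 2 rose and 6 fell in Cre + NFIA against Cre at day 7, beside 27% and 35.9% of all genes, so that the share that fell was near the background and the share that rose below it. Ppp1cb, the catalytic subunit of myosin phosphatase, rose by 0.25, whereas the endothelin receptor Ednra (-1.14) and the cGMP-dependent kinase Prkg1 (-0.66) fell. The mutant against Cre raised 1, the calmodulin gene Calm2 (0.20), and lowered 3, among them Ednra (-0.40) and the calcium channel gene Itpr1 (-0.37). At day 0 Itpr1 fell with full-length NFIA (-0.52) and with the mutant (-0.60). The angiotensin receptor gene Agtr1a rose (0.80) and Ednra fell (-0.77) with full-length NFIA at that day.

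All 13 cytoplasmic counterparts were tested. In Cre + NFIA against Cre at day 7 11 fell and 2 rose, beside 35.9% and 27% of all genes, with a median of -0.63. Cnn2 changed by -1.88 (SE 0.09, adjusted p = 1.61e-08) and Cnn3 by -1.45 (SE 0.07, adjusted p = 1.78e-08). Myh10 (0.23) and Myl12b (0.22) were those that rose. The mutant raised 6 against Cre, among them Actg1 (0.36), Tagln2 (0.30) and Myh9 (0.26), and lowered none. At day 0 Tagln2 rose with full-length NFIA (0.60) and with the mutant (0.53), opposite to the direction of Tagln with full-length NFIA, and Cnn2 fell with each (-1.08 and -0.64).

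Adipocyte genes changed at day 7 as well, in most comparisons opposite to the members. Pparg, the regulator of adipocyte differentiation, was at 50.1, 51.2 and 54.8 FPKM for ctrl, 24.05, 27.00 and 16.3 FPKM for Cre, 60.2, 63.2 and 56.5 FPKM for Cre + NFIA and 6.38, 9.29 and 11.4 FPKM for the mutant. All 12 adipocyte genes fell in Cre against ctrl, all 12 rose in Cre + NFIA against Cre and all 12 fell in the mutant against Cre, with medians of -1.83, 1.67 and -2.12. Their sum was 23202 to 26988 FPKM for ctrl, 4628 to 9910.5 in Cre, 22098 to 22324 in Cre + NFIA and 887 to 2248 in the mutant. Within Cre at day 7 the library with the highest adipocyte sum, replicate 2, had the lowest contractile sum, and replicate 3 the reverse. In the mutant replicate 3 had the highest adipocyte sum and the lowest contractile one. The lowest adipocyte sum there was in replicate 1 and the highest contractile one in replicate 2. Replicate 1 of ctrl had the lowest adipocyte sum and the highest contractile one. Replicate 3 of Cre + NFIA had the highest of both sums. In Cre + NFIA against ctrl, where 6 contractile genes were lower, the median of the adipocyte genes was -0.04, and the largest difference was that of Cfd, -1.02 (SE 0.35, adjusted p = 0.0674), which did not pass and was named after its value was seen. At day 0, where the contractile sum also separated the cell types, the adipocyte sums were 121 to 125 in ctrl, 91.4 to 108 in Cre, 116 to 121 in Cre + NFIA and 82.9 to 89.1 in the mutant. The part of adipocyte conversion in the members' day 7 values was not tested.

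**Figure D5:**
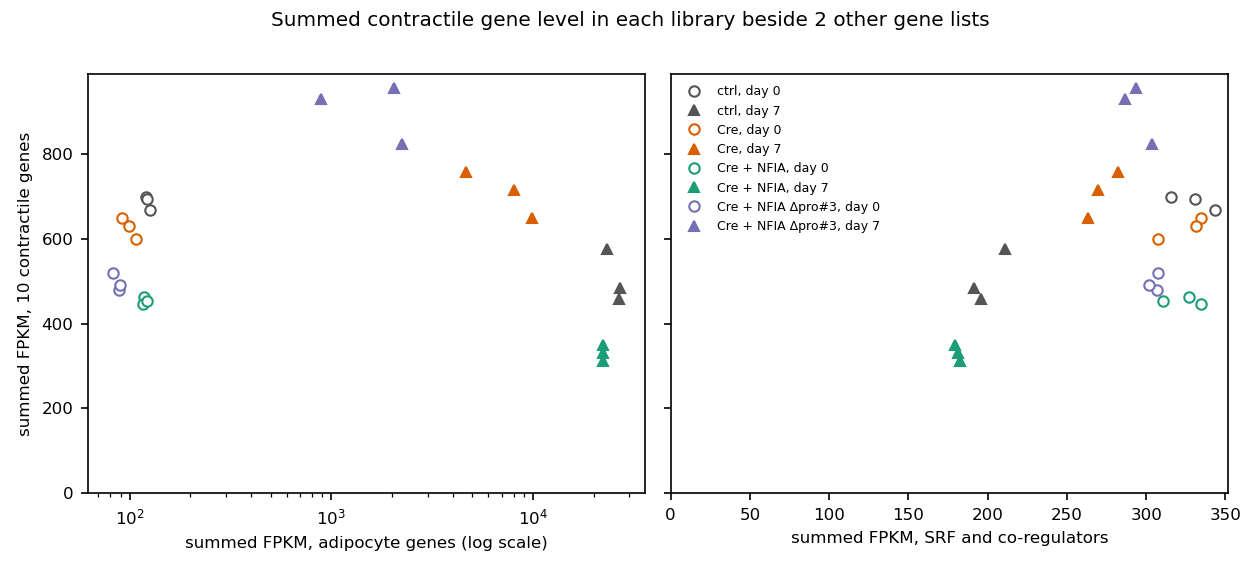
The vertical axis is the summed FPKM of the 10 contractile genes in each of 24 libraries, against the summed FPKM of 12 adipocyte genes (left, log scale) and of 20 genes of the SRF list (right). Colours give the cell type, open circles day 0 and filled triangles day 7. At day 7 the Cre + NFIA libraries are at the lower right and the mutant at the upper left of the adipocyte panel.

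Several defining markers of endothelial cells and macrophages were at or near 0, while other genes of these lists were expressed and differed. Of 8 endothelial markers Tie1 was at 0 in all libraries, the defining genes Cdh5, Cldn5 and Emcn were at 0.0439 FPKM or less in every group mean, and the sum was 2.09 to 2.87 FPKM for Cre + NFIA and 4.64 to 5.17 FPKM for the mutant at day 7. Pecam1, not tested, had means of 0.320 FPKM for ctrl, 0.0722 in Cre, 0.332 in Cre + NFIA and 0.0652 in the mutant at day 7. The highest group mean of Vwf, also not tested, was 0.186 FPKM. Kdr and Tek passed the filter, and in the mutant against Cre at day 7 Kdr rose by 1.37 and Tek fell by 0.37 on the log2 scale. Of 7 macrophage markers Adgre1 was at 0 throughout and Ptprc at 1 read or none in any library. The 4 tested genes of that list were Cd68, Csf1r, Cd14 and Lyz2, with Cd68 at 5.23 FPKM for Cre, 4.56 in Cre + NFIA and 5.97 in the mutant at day 7 (mean). In the mutant against Cre at day 7 Cd14 (0.54) and Lyz2 (0.88) rose, in Cre + NFIA against Cre Csf1r (-0.76) and Cd14 (-0.58) fell, and all 4 were higher in the mutant than with full-length NFIA, beside 40.4% of all genes. Sums of the macrophage list at day 7 were 6.41 to 6.92 FPKM for ctrl, 8.43 to 10.1 in Cre, 6.05 to 7.37 in Cre + NFIA and 12.9 to 14.5 in the mutant, the order of the contractile sums in the last 3, and their part in the members' values was not tested. Among 9 pericyte markers, 1 of which is Des, 2 were at 0 in all libraries, and the sums at day 7 were 91.1 to 96.3 FPKM for ctrl, 111 to 121 in Cre, 85.9 to 92.9 in Cre + NFIA and 111 to 117 in the mutant. Of 5 tested pericyte markers 2 rose and 3 fell in Cre + NFIA against Cre at day 7, beside 27% and 35.9% of all genes. Mcam, a vascular adhesion molecule, rose in Cre + NFIA against Cre by 1.47 and fell with the mutant (-1.83). Pdgfrb (-1.66) and Notch3 (-1.13) fell in Cre + NFIA. In the 14 skeletal muscle markers Tnnc2, a troponin of fast muscle, rose by 3.36 and Acta1, the skeletal actin, by 1.38 in Cre + NFIA against Cre at day 7, where both smooth muscle actins fell, and Myog stayed at 0.0596 FPKM or less in every group mean.

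Of 9 tested fibroblast and preadipocyte markers 8 fell in Cre + NFIA against Cre at day 7, led by the preadipocyte factor Dlk1 (-2.58) and the collagen gene Col1a1 (-1.57). The sums of this list at day 7 were 1311 to 1434 FPKM for ctrl, 2301 to 2581 in Cre, 1026 to 1149 in Cre + NFIA and 2496 to 2923 in the mutant. In Cre + NFIA against Cre at day 0, 4 of these markers were higher and 3 lower, beside 14.7% and 12.9% of all genes. Their median there was 0.01. Of 8 proliferation genes 7 were higher in Cre + NFIA and 6 in the mutant than in Cre at day 0, beside 14.7% and 9.26% of all genes, where contractile genes were lower, with medians of 0.35 and 0.29. At day 7 2 were higher and 1 lower in Cre + NFIA against Cre. Their part in the members' values was not tested.

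Outside the lists, the genes whose log2 level was most like the mean of the z-scored members over the 24 libraries were Prrx2 (Pearson's r 0.948), Slit2 (0.942), Cpxm1 (0.941), Sox4 (0.927), Pde4b (0.916), Arhgdib (0.915), Tmsb4x (0.911) and Inhbb (0.907). Prrx2, a homeobox gene of mesenchyme, was at 43.5 ± 3.89 FPKM for ctrl, 70.6 ± 4.36 in Cre, 26.1 ± 1.72 in Cre + NFIA and 66.3 ± 5.64 FPKM for the mutant at day 7. Tmsb4x encodes thymosin beta 4, which binds actin monomers. Among the most opposite were Trim14 (-0.895), Steap4 (-0.894) and Narf (-0.868). Among the members themselves, the correlation with the mean of the other 9 was 0.951 for Acta2, 0.929 for Actg2, 0.927 for Cnn1, 0.907 for Myl9 and 0.858 for Tagln. It was 0.474 for Tpm2, 0.354 for Des, 0.233 for Cald1, 0.211 for Tpm1 and -0.123 for Myh11. These are likenesses over libraries that share day and cell type and are given with no test.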

How the data were processed

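RNA-seq of 24 libraries (4 cell types, 2 days, 3 replicates) was used, grouped by GEO's labels. The authors aligned stranded polyA RNA reads to mm9 with STAR 2.5.3a, kept unique alignments, took strand-matched gene counts and deposited them as FPKM. The gene annotation is not given in the sources used here. Reads were recovered from FPKM and came out whole (tolerance 0.02 of a read) for 100% of values, with totals of 7732829 to 14622189 reads a library. Intervals cover the spread between libraries, and read floors counting error only.

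Genes at 1 FPKM or more in at least 3 libraries (12640 of 24825) were tested with limma 3.58.1 in R 4.3.3 on log2(FPKM + 1), with a mean-variance trend and Benjamini-Hochberg adjustment over all of them. Fold changes on that scale understate changes of low genes. Comparisons within a day used its 12 libraries, and those between days and the interactions used all 24. A call was an adjusted p under 0.05, with the count at 3-fold beside it. The steps were tested on simulated data. Replicate libraries differed by more than sampling noise in all 24 pairs of replicates. Each was counted as 1 sample, although this does not show that the replicates were separate cultures. Isoform shares were compared with an exact two-sided permutation test (scipy 1.17.1). Gene positions are GENCODE on mm9, and promoters RefSeq on GRCm38.p6.

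The members and gene lists were chosen with earlier results of these data known. Named genes were all members, Srf, Myocd, Mkl1 and Mkl2, the cytoplasmic counterparts, Pparg, Fabp4, Adipoq and Cidec, from each other list up to 2 higher and 2 lower genes with the largest change past the test and no overlap in Cre + NFIA and in the mutant against Cre at each day, and outside the lists the 8 genes most like and the 4 least like the members (mean FPKM of at least 5). Of the genes this rule names, 3 are not reported here. Alternatives were other pseudocounts (0.1 and 5), filters, scalings, models, thresholds, a replicate block, and leaving out each library.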

Additional observations from a re-analysis of the deposited data

Results flagged for a closer look

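For 36 of the 40 combinations of a member and an interaction, the difference between 2 cell types was itself different at day 7 and day 0 (limma, adjusted p under 0.05). Of all genes tested, 29.7% were higher and 19.5% lower for Cre against ctrl. For Cre + NFIA against Cre these shares were 18.8% and 30.1%, and for the mutant against full-length NFIA 35% and 24.3%. In the mutant against Cre 7.79% were higher. The count includes Myh11 and Des, which passed the filter only through groups where they were high. The members' values below are differences of log2 changes, day 7 minus day 0, with 3 libraries in each of the 4 groups. For Cre against ctrl they were 0.84 for Acta2, 0.67 for Tagln, 0.74 for Cnn1, 0.81 for Myl9, 0.57 for Tpm1, 0.68 for Tpm2, 0.77 for Actg2, -1.05 for Myh11 and 0.74 for Cald1, so that Myh11 alone went down. For Cre + NFIA against Cre they were -0.72 for Acta2, -0.50 for Tagln, -0.95 for Cnn1, -0.39 for Myl9, -0.33 for Tpm1, -0.67 for Actg2, 0.81 for Myh11, -0.93 for Cald1 and -0.75 for Des. In this set Myl9 had an adjusted p of 0.0467 and lost its call without any 1 of 10 of the 12 libraries. For the mutant against Cre they were 0.81 for Acta2, 0.75 for Tagln, 0.90 for Cnn1, 1.06 for Myl9, 0.68 for Tpm1, 0.64 for Tpm2, 0.89 for Actg2 and 0.40 for Cald1. For the mutant against full-length NFIA they were 1.54 for Acta2, 1.25 for Tagln, 1.85 for Cnn1, 1.45 for Myl9, 1.01 for Tpm1, 0.83 for Tpm2, 1.56 for Actg2, -0.68 for Myh11, 1.32 for Cald1 and 0.73 for Des. The adipocyte genes differed between the same groups at day 7, and their part in these values was not tested.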

How the results depend on the processing

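Of 3480 recomputed log2 changes of members 3348 kept their direction and their side of the threshold, 88 no longer passed, 44 newly passed, and none that passed turned its direction. Of 412 recomputed counts of members past the test 375 stayed within 1.5 times. With a change of at least 3-fold required as well, the counts were 2 in the mutant against full-length NFIA at day 7, 4 between days in the mutant, 1 in the interaction of these forms and 0 in the other 17 comparisons. For the settings that follow, shares of all genes are not given. These counts therefore show only how far the members' calls depend on the setting. With 1.5-fold they were 1 in Cre against ctrl, 3 in Cre + NFIA against Cre, 1 in the mutant against Cre, 0 in the mutant against full-length NFIA and 4 in the mutant against ctrl at day 0. At day 7 they were 4 in Cre against ctrl and 2 in the mutant against Cre, and between days 6 in Cre and 3 in Cre + NFIA. At an adjusted p under 0.01, 1 member remained counted in Cre against ctrl at day 0 and 2 in the mutant against Cre at day 7. Cre against ctrl at day 0 had 4 with a pseudocount of 5, 4 by limma voom and 0 with only the 2 groups in the model, which leaves fewer libraries to estimate the spread. Leaving out 1 library gave 2 to 6 for the mutant against Cre at day 7 and stayed within 1.5 times of the count in the other 19 comparisons. The cause of these changes was not tested. Replicate numbers did not pair the libraries, since in no comparison were all 3 correlations over 0.1 (means of -0.16 to 0.11). With a replicate block 18 of 20 counts were equal, Cre + NFIA against Cre at day 0 had 5 instead of 6 and Cre + NFIA against ctrl at day 7 had 7 instead of 6, in both through Des. Myh11 and Des, with 8 and 1 reads in their lowest libraries, are limited by depth at day 0.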
